A study of Mus musculus with 26 samples.

Results

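The genes described here mark the lymphocytes that enter a gland in autoimmune disease, and 30 were listed: 13 of T cells, 12 of B cells and 5 of cytotoxic cells. Each gene was represented by 1 probe set, the one with the highest mean log2 value over all 26 arrays among those that name only that gene. Of the 30 genes, 29 had such a probe set, out of 18194 genes in all, and Lck is not analysed here. The tissue was the lacrimal gland of male C57BL/6.NOD-Aec1Aec2 mice, a strain that carries NOD-derived regions in the C57BL/6 background, Idd3 on chromosome 3 and Idd5 on chromosome 1, and is used as a model of Sjögren's syndrome. All arrays came from this strain, and there were 4 for mice aged 4 weeks, which the labels place before disease, 6 each for those aged 8 and 12 weeks, and 5 each for those aged 16 and 20 weeks. No other strain is used here, so a difference between ages is not separated from normal ageing of the gland. The labels call the replicates biological without saying if each holds RNA of 1 mouse or of several, so the p-values cover the spread among these arrays only.

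T cells recognise antigen through a receptor whose signalling part is the CD3 complex, and the CD4 and CD8 coreceptors split them into helper and cytotoxic cells. B cells carry an antibody as their receptor, which signals through CD79a and CD79b, and CD20, the product of Ms4a1, lies beside it in the membrane. Cytotoxic T cells and natural killer cells kill with perforin and granzymes, and in Sjögren's syndrome T and B cells gather in foci around the ducts of the tear and salivary glands.

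In these data nearly all of the lymphocyte genes lay at the level of the array background at every age, and 1 array, 12 weeks replicate 4, had more of them above their usual level than any other. Without detection calls, which did not enter here, a level close to an array's median is not distinguishable from background. In a whole gland, fewer cells of a type and less RNA per cell cannot be told apart.

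Promoters are shown for 3 of the genes that stood higher on that array than on any other, the B cell receptor gene Cd79a and the neighbouring pair Cd3d and Cd3g. The sequences come from RefSeq (GRCm38.p6) and run from 250 bases before to 50 after the start of the gene, 5′ to 3′ on the strand of the gene. That table held 27 promoters for 22 of the 30 genes. Capitals mark a match to CAGGAAGT, a sequence bound by ETS family factors.
Cd79a, chr7:24897247-24897546, plus strand: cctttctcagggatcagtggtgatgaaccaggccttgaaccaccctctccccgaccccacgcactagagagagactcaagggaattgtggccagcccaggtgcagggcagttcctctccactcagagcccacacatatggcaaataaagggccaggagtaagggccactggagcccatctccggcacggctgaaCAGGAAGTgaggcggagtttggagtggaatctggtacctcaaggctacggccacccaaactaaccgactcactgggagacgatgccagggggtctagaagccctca
Cd3d, chr9:44981536-44981835, plus strand: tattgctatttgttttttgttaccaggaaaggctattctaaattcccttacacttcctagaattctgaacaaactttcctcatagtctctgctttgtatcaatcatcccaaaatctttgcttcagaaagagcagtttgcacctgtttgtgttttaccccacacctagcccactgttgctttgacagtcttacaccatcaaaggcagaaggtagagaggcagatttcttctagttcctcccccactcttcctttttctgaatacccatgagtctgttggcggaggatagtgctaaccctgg
Cd3g, chr9:44980382-44980681, minus strand: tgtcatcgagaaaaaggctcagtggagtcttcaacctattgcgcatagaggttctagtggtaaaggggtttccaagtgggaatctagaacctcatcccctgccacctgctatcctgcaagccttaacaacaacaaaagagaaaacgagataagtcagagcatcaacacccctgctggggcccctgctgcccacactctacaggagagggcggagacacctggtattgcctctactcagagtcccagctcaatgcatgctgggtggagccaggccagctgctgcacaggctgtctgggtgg
The match in Cd79a began 56 bases before its start, and the other 2 sequences hold none. Searched on both strands, CAGGAAGT was in 6 of the 27 promoters (22.2%), those of Cd247, Cd3e, Cd79a, Prf1 and both starts of Lck, and in 3.33% of all 32851 promoters. TGTGGTT, the RUNX sequence, was in 4 of the 27 (14.8%), those of Gzma, Gzmb, Tnfrsf13c and 1 start of Lck, and in 5.27% of all. TCCCNNGGG, the EBF1 sequence, was in 1 (3.70%), that of Cd22, and in 6.56% of all, while the octamer ATTTGCAT was in none of the 27 and in 1.74% of all. These matches are a description of letters and not of binding. Cd3d and Cd3g are read away from each other, and their starts lie 1355 bases apart.

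The tissue markers of the gland were strong on most arrays: the median over the 26 arrays was 11.87 log2 units for Bhlha15, a factor of secretory cells, 10.90 for the water channel Aqp5 and 13.08 for lactoferrin (Ltf), while Krt19 (2.12) and Chrm3 (2.58) lay near background. The array medians lay between 2.94 and 3.22. The array at 20 weeks replicate 1 stood apart with raised low values and an SD over all probe sets of 1.36, and 16 weeks replicate 4 had an SD of 1.68.

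A level under 4.04, within 1 log2 unit of the median of the array medians, is called near background. By that measure 26 of the 29 genes had a mean near background at all 5 ages, beside 56.3% of all genes. The other 3 were the T cell gene Cd4 and the B cell genes Ms4a1 and Tnfrsf13c, the receptor for the B cell survival factor BAFF. A median near background over all arrays was found for 27, the exceptions being Ms4a1 (4.28) and Tnfrsf13c (4.38). The distance of each gene from the array medians is given here as its mean over the 26 arrays. Tnfrsf13c lay 1.41 above, Ms4a1 1.41 above and Cd4, the helper coreceptor, 0.88 above. Fcrla, an Fc receptor-like protein inside B cells, lay 0.49 above, Cd8a 0.37, Lat 0.34 and Klrd1 0.23. Lat is the adaptor that links the T cell receptor to its downstream enzymes, and Klrd1 is CD94, a receptor subunit of natural killer and some cytotoxic T cells. Cd247, the zeta chain of the T cell receptor complex, lay 0.12 above, Bank1, a B cell scaffold protein, 0.10, Cd3e 0.086 and Cd8b1 0.023.

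The remaining 18 genes (62.1%) had means below the array medians, beside 35.2% of all genes. Fcer2a (CD23) lay at -0.071, Cd2, an adhesion receptor of T cells, at -0.11, Cd3g at -0.11 and granzyme A (Gzma) at -0.12. Cd79a lay at -0.15, Cd79b at -0.29 and granzyme B (Gzmb) at -0.40. The complement receptor Cr2 lay at -0.50, the inhibitory coreceptor Cd22 at -0.51 and the transcription factor gene Spib at -0.51. Cd6 lay at -0.59, perforin (Prf1) at -0.61, Nkg7, a granule protein, at -0.63, and Zap70, the kinase that binds the phosphorylated CD3 complex, at -0.76. Lowest were Cd5 at -0.79, Cd3d at -0.79, the B cell transcription factor Pax5 at -0.83 and the kinase Blk at -1.13. Differences in level between probe sets also depend on the probes, so this order says how near each gene lay to background and does not rank the amounts of RNA.

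**Figure D1:**
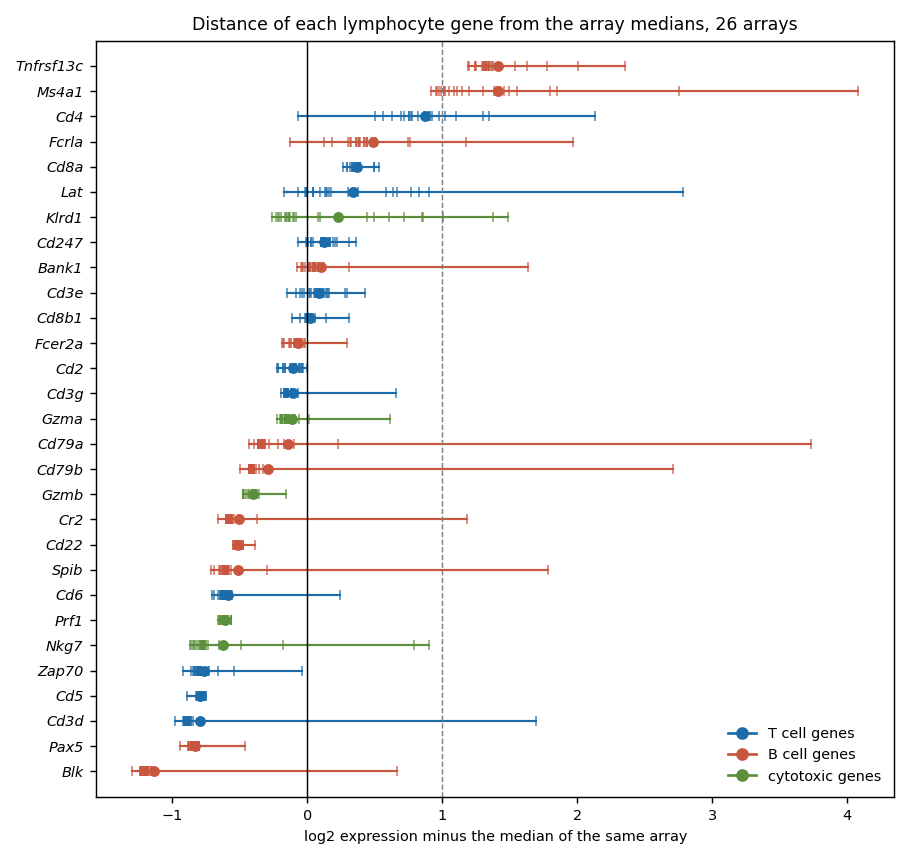
Each row is 1 of the 29 lymphocyte genes, and the x axis is its log2 expression minus the median of the same array; ticks are the 26 arrays, the dot is their mean, the solid line marks the array median and the dashed line 1 log2 unit above it. Only Tnfrsf13c and Ms4a1 have means past the dashed line (1.41 for both), and the long right-hand tails of Ms4a1, Cd79a, Lat, Cd79b and Cd3d end at 1 array, 12 weeks replicate 4.

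For the tests, a gene was kept if it lay above the array median on at least 4 arrays, and 11 of the 29 passed, 6 of T cells (Cd3e, Cd247, Cd4, Cd8a, Cd8b1, Lat), 4 of B cells (Ms4a1, Fcrla, Tnfrsf13c, Bank1) and 1 of cytotoxic cells (Klrd1). None of the 11 was called by the limma F test over the 5 ages at an adjusted p under 0.05, and 2, Cd247 and Klrd1, had an unadjusted p under 0.05. Of all 12377 genes kept, 14.9% were called in that test. With no filter, all 29 were tested and none was called, and 8.56% of all genes were.

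No lymphocyte gene was called by limma in any of the 6 contrasts between ages, each of which gave an unadjusted p under 0.05 for 1 gene, except the last, which gave 2. For 8 against 4 weeks, 1.36% of all genes were called, and the median change of the 11 was -0.16 log2 units, beside 0.032 over all genes kept. For 12 against 8 weeks, 0.0162% were called, and the medians were 0.26 and 0.023. For 16 against 12 weeks, 2.98% were called, with medians of 0.013 and -0.040. For 20 against 16 weeks, 0.0162% were called, with medians of 0.066 and 0.013. For 20 against 4 weeks, 2.21% were called, with medians of 0.093 and 0.011. For 12 to 20 weeks against 4 and 8 weeks, 3.34% were called, with medians of 0.0995 and 0.013. A count of 0 of 11 is near the share of all genes called in these contrasts. With only 11 genes it cannot be told apart from the larger share called in the F test either.

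Among the T cell genes, Cd3e, the epsilon chain of CD3, was at 3.14, 3.50, 3.43 and 3.15 log2 units on the 4 arrays at 4 weeks and between 3.00 and 3.14 at 8 weeks (median 3.13). It was between 2.92 and 3.13 at 12 weeks (median 3.09), at 3.15, 2.84, 3.34, 3.14 and 3.13 at 16 weeks and at 3.24, 2.99, 3.15, 3.08 and 3.00 at 20 weeks. All of these values are near background, and all 4 arrays at 4 weeks lay above every array at 8 and 12 weeks, the lowest of them only narrowly, while the ranges at 16 and 20 weeks overlap with it. The change from 4 to 20 weeks was -0.21 ± 0.093 (SE, limma adjusted p = 0.287).

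Cd4 was at 3.93, 4.18, 4.46 and 3.94 at 4 weeks, between 3.53 and 4.06 at 8 weeks (median 3.72) and between 2.88 and 4.42 at 12 weeks (median 3.68). It was at 3.93, 3.91, 3.91, 3.89 and 3.97 at 16 weeks and at 5.35, 3.95, 3.95, 4.08 and 3.77 at 20 weeks. The ages overlap, and the highest value, 5.35, came from 20 weeks replicate 1, the array with raised low values. A second probe set of Cd4 lay at 2.29 on 12 weeks replicate 4 and at 2.22 or lower on every other array. The change in Cd4 from 4 to 20 weeks was 0.093 ± 0.26 (limma adjusted p = 0.921), and without 20 weeks replicate 1 it was -0.19 (adjusted p = 0.719).

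The signalling chain Cd247 was between 2.90 and 3.53 over all arrays, and its mean ± SD was 3.05 ± 0.10 at 8 weeks (n = 6) and 3.33 ± 0.17 at 20 weeks (n = 5), with an adjusted p of 0.098 in the limma F test. Its highest value came from 20 weeks replicate 1, 1 of the 2 arrays that stand apart, and without that array the change from 4 to 20 weeks was 0.069 in place of 0.12 and the adjusted p in the F test was 0.180. Of the cytotoxic coreceptor genes, Cd8a was between 3.30 and 3.72, with its highest value on the same array, and Cd8b1 between 2.85 and 3.25 over all arrays, with adjusted p-values of 0.418 and 0.484 in the limma F test. Cd5, Cd6, Zap70 and Cd2, of which none was kept, had highest values of 2.42, 3.31, 3.18 and 3.22, that of Cd6 on 16 weeks replicate 4 and the others on 20 weeks replicate 1, the arrays that stand apart. A further probe set of Zap70, whose name ends in _x_at and which can bind related transcripts, was at 5.59 on 20 weeks replicate 1.

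Among the B cell genes, Ms4a1 had the highest single value of the 29. It was at 3.98, 4.18, 4.55 and 4.19 at 4 weeks, between 3.92 and 4.13 at 8 weeks (median 3.99) and between 3.94 and 7.02 at 12 weeks (median 4.37). It was at 4.26, 3.98, 4.47, 4.92 and 4.63 at 16 weeks and at 4.68, 4.49, 4.48, 5.86 and 4.79 at 20 weeks. Each of the 5 arrays at 20 weeks exceeded each of the 6 at 8 weeks, and 1 array at 4 weeks (4.55) lay within their range. The mean of 12 to 20 weeks was 0.56 ± 0.26 above that of 4 and 8 weeks (limma adjusted p = 0.269), and 0.40 without 12 weeks replicate 4 (adjusted p = 0.115). The second Ms4a1 probe set did not show the values at 20 weeks: it was at 5.31 on 12 weeks replicate 4 and at 2.02 or lower on the other 25 arrays.

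Tnfrsf13c was at 4.39, 4.42, 4.53 and 4.35 at 4 weeks, between 4.17 and 4.34 at 8 weeks (median 4.26) and between 4.29 and 4.94 at 12 weeks (median 4.54). It was at 4.41, 4.36, 4.39, 4.31 and 4.39 at 16 weeks and at 4.76, 4.39, 4.40, 5.46 and 4.25 at 20 weeks. The highest array was 20 weeks replicate 4, which was also the second highest for Ms4a1, and the next was 12 weeks replicate 4. The adjusted p of Tnfrsf13c in the limma F test was 0.222.

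Of the cytotoxic genes, Klrd1 came nearest to the threshold. It was at 2.83, 2.86, 2.94 and 2.81 at 4 weeks, between 2.81 and 3.61 at 8 weeks (median 2.89) and between 2.85 and 3.82 at 12 weeks (median 3.11). It was at 3.16, 4.37, 3.76, 4.55 and 3.57 at 16 weeks and at 3.05, 4.08, 3.16, 2.84 and 3.44 at 20 weeks. Compared with the highest array at 4 weeks, all 5 arrays at 16 weeks and 4 of 5 at 20 weeks were higher, while 2 of 6 at 8 weeks and 3 of 6 at 12 weeks did.

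The adjusted p of Klrd1 in the limma F test was 0.0548. Its mean of 12 to 20 weeks was 0.56 ± 0.17 above that of 4 and 8 weeks (adjusted p = 0.0693), it was 0.63 ± 0.25 higher at 16 than at 12 weeks (adjusted p = 0.157) and changed by -0.57 ± 0.26 from 16 to 20 weeks (adjusted p = 0.587). Over the 37 other settings its adjusted p in the F test lay between 0.0108 and 0.319, and 7 of them passed. Its highest array, 16 weeks replicate 4, is 1 of the 2 that stand apart, and with both left out the adjusted p was 0.113 in the F test, while the change from 4 and 8 weeks to 12 to 20 weeks was 0.52 (limma adjusted p = 0.0444). The actin control, whose 3' minus 5' difference grows as RNA is degraded or shortened, moved with the same ages: its mean was 2.90 log2 units at 4 weeks and 2.63 at 8, then 3.69, 4.56 and 3.89 at 12, 16 and 20 weeks. With that difference as a covariate, the change of Klrd1 from 4 and 8 weeks to 12 to 20 weeks was 0.39 (limma adjusted p = 0.528). Because the actin difference varied with age, this fit cannot tell the 2 apart, and an effect of RNA quality on Klrd1 was not tested.

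The other cytotoxic genes were not kept. Gzma was highest at 3.69 on 20 weeks replicate 3, where Gzmb was also highest at 2.92, and Prf1 was between 2.28 and 2.57 on all arrays. Nkg7 lay at 3.84 on 12 weeks replicate 4, 3.78 on 20 weeks replicate 5 and 2.87 or lower on the other 24 arrays. Of 23 further cytotoxic and natural killer cell genes, 10 were kept and 1 was called in the F test, beside 14.9% of all genes kept. A count of 1 of 10 is near that share. The gene was Eomes, a transcription factor, with means of 3.77 at 4 weeks and 4.07 at 20 weeks.

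**Figure D2:**
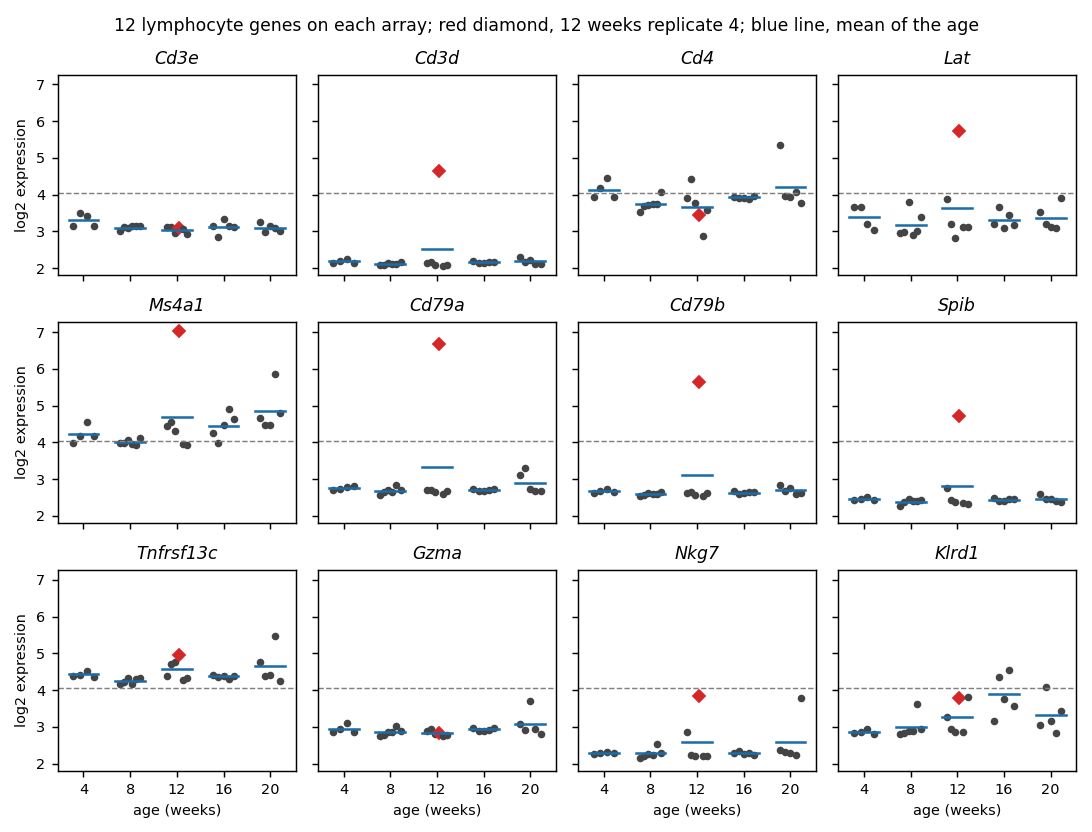
Panels show 12 of the lymphocyte genes, with age in weeks on the x axis and log2 expression on the y axis; each point is 1 array, the blue bar is the mean of the age, the red diamond is 12 weeks replicate 4 and the dashed line is 4.04, below which a level is called near background. The diamond is the highest point for Cd3d (4.63), Lat (5.72), Ms4a1 (7.02), Cd79a (6.67), Cd79b (5.65), Spib (4.72) and Nkg7 (3.84), and Klrd1 is highest at 16 weeks (4.55).

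The array at 12 weeks replicate 4 differed from the other 25 in these genes. On it, 11 of the 29 stood at least 1 log2 unit above their own median over all arrays, a level that 11.6% of all 18194 genes reached on that array. They were 8 of the 12 B cell genes, 2 of the 12 T cell genes and 1 of the 5 cytotoxic genes. Of the other 25 arrays, 20 weeks replicate 4 had 2 such genes (Ms4a1 and Tnfrsf13c), 5 arrays had 1 each and 19 had none. That 1 log2 unit was chosen after the data were seen, and on 12 weeks replicate 4 the count was 14 at 0.5 log2 units and 6 at 2. Measured against the median of the other 12 week arrays, after quantile normalization or after centring, it was 11 each time.

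Cd79a, the signalling chain of the B cell receptor, was at 6.67 on this array and between 2.59 and 2.70 on the other 5 at 12 weeks. It was at 2.71, 2.74, 2.79 and 2.82 at 4 weeks and between 2.58 and 2.83 at 8 weeks (median 2.68). It was at 2.73, 2.67, 2.68, 2.70 and 2.72 at 16 weeks and at 3.12, 3.30, 2.73, 2.67 and 2.67 at 20 weeks. The gap to the highest other array was 3.37 log2 units, the fourth largest among all 18194 genes.

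Its partner Cd79b was at 5.65, against 2.83 or lower elsewhere, the fourteenth largest gap. Spib, a factor of B cells and plasmacytoid dendritic cells, was at 4.72 against 2.75 or lower, Bank1 at 4.58 against 3.36, Cr2 at 4.13 against 2.70, Blk at 3.60 against 1.98 and Fcrla at 4.91 against 4.23. Ms4a1 was at 7.02 against 5.86. Against these 8, Tnfrsf13c (4.94) was below its own highest array, and the chosen probe sets of Pax5 (2.10), Cd22 (2.42) and Fcer2a (2.76) were at background on this array. A second probe set of Cd22 was at 3.62 there and at 2.45 or lower on the other arrays. That of Fcer2a was at 3.35 there, 0.67 above its median, and at 2.89 or lower on the other arrays. A second probe set of Pax5 was not raised, at 1.82. The other probe sets of Fcrla were not raised on this array, at 3.14 and 2.60, and reached 3.70 and 2.94 on other arrays. Of 17 other probe sets of the lymphocyte genes, 2 stood at least 1 log2 unit above their median on this array.

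Of the T cell genes, Cd3d, the delta chain of CD3, was at 4.63 on this array and between 2.06 and 2.31 on the other 25. Lat was at 5.72 against 3.90 or lower. Cd3g, whose start lies near that of Cd3d, was at 3.60 against 3.10 or lower, 0.70 above its median. Cd3e was at 3.10, below its median of 3.13, and Cd4 at 3.44, Cd2 at 2.91, Cd5 at 2.19, Cd6 at 2.38 and Zap70 at 2.15 were not raised there. The 3 CD3 chain genes thus differed on this array, and each was read by a single probe set.

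Counted by the highest array, 13 of the 29 genes (44.8%) had their highest value of all on 12 weeks replicate 4, against 7.83% of all genes, and 9 (31.0%) had it on 20 weeks replicate 1, against 29.7% of all genes. The second share is close to that of all genes. By a gap of at least 1 log2 unit to every other array, 9 of the 29 genes stood out on 12 weeks replicate 4, beside 0.572% of all genes. That array was singled out by these same genes, so the counts describe it and are no separate evidence.

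**Figure D3:**
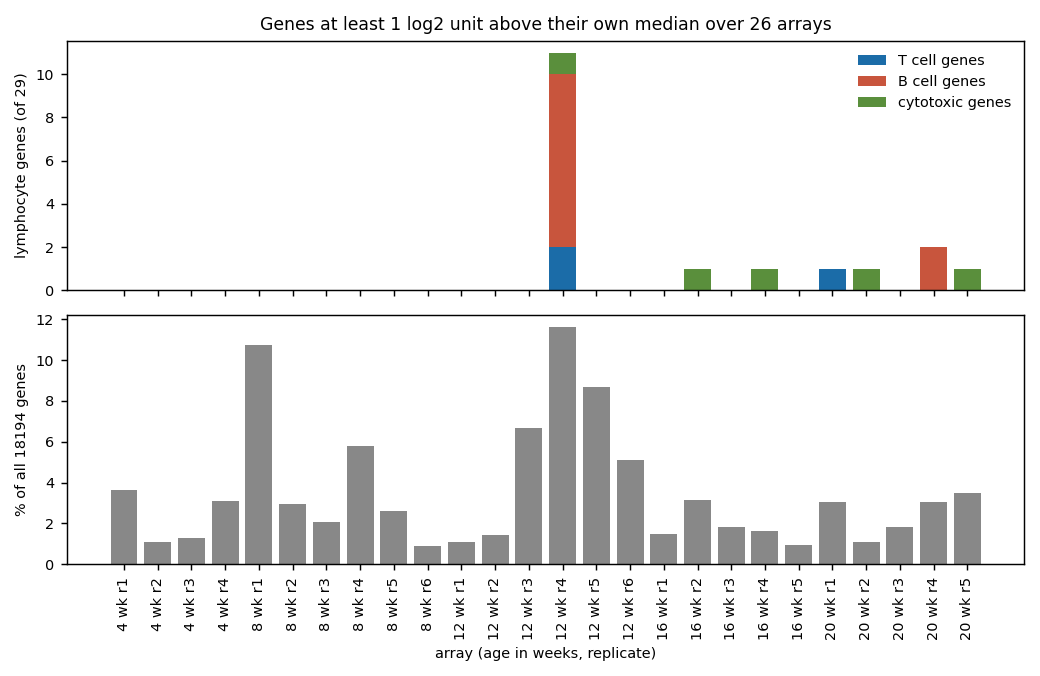
For each of the 26 arrays, the upper bars count the lymphocyte genes, of 29, that stood at least 1 log2 unit above their own median, coloured by cell type, and the lower bars give the percentage of all 18194 genes that did. The count is 11 on 12 weeks replicate 4 and 0 to 2 elsewhere, while the share of all genes, 11.6% on that array, is nearly as high on 8 weeks replicate 1 (10.8%), where no lymphocyte gene reached that level.

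The change from 8 to 12 weeks became smaller in 3 of the 4 B cell genes kept and in Lat, by over 1.5 times, when this array was left out. These genes were already among those raised on this array, so a smaller change without it follows from that. The values show how much the age means rest on 1 array and are no separate result. The change from 8 to 12 weeks in Ms4a1 was 0.70 ± 0.36 with it and 0.23 without it. It was 0.40 ± 0.22 and 0.16 in Fcrla, 0.30 ± 0.18 and 0.053 in Bank1, and 0.47 ± 0.33 and 0.058 in Lat. Tnfrsf13c, the fourth B cell gene kept, moved less, from 0.31 ± 0.15 to 0.23, and its change from 12 to 16 weeks was -0.20 with the array and -0.12 without it. From 12 to 16 weeks the change was below 0 with the array in Ms4a1, Fcrla, Bank1 and Lat (-0.25 in Ms4a1 and -0.33 in Lat) and above 0 without it (0.21 and 0.081), and none passed the limma test either way, with adjusted p-values between 0.453 and 0.933 from 12 to 16 weeks and of 1.00 from 8 to 12 weeks.

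Further lists were counted on the same array, where 11.6% of all genes reached 1 log2 unit above their median. Among 26 further B cell genes 11 did, and among 16 pan-leukocyte genes 11. Among 26 further T cell genes 3 did and among 23 further cytotoxic genes 1, which is no more than the share of all genes. Among genes with a median near background the share on this array was lower, 6.02%. Against that share, counts in lists this short do not settle if T cell genes were raised. The genes named next in this paragraph were chosen after their values were seen. H2-Ob, an antigen-presentation gene of B cells, was at 6.73 against 3.07 or lower on the other arrays, lymphotoxin beta (Ltb) at 6.58 against 3.31, the IgM Fc receptor gene Fcmr at 5.54 against 2.30 and the B cell coactivator Pou2af1 at 6.55 against 3.07. Thy1, a surface protein of T cells, was at 6.08 against 2.96, Coro1a, an actin regulator of leukocytes, at 9.49 against 6.52 and Rac2 at 7.27 against 4.11.

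The median excess on this array was 1.57 log2 units for the 12 B cell genes, 0.68 for the 26 further B cell genes and 1.83 for the pan-leukocyte genes. It was -0.027 for the 12 T cell genes, -0.055 for the 5 cytotoxic genes and -0.0067 for the 12 macrophage genes. The 12 macrophage genes, which include the complement genes C1qa, C1qb and C1qc, had no member raised by 1 log2 unit.

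Tissues next to the gland were read from their own lists. Salivary gland genes had their highest list mean of all arrays on this one, at 11.01. The list was also high on 4 weeks replicate 1 (10.60), 8 weeks replicate 1 (10.29) and 8 weeks replicate 3 (10.09). Of 10 genes listed for lymph node stroma and lymphatic vessels, 3 were raised on 12 weeks replicate 4: Cr2 (4.13), Ccr7 (4.09) and Glycam1 (4.83, against 5.03 on 20 weeks replicate 1). That list also holds genes of lymphocytes and does not read stroma alone. Cr2 and Fcer2a are among the B cell genes above, and Ccr7 is a chemokine receptor of lymphocytes. The list mean was 4.31 on this array and between 3.51 and 4.30 on the other 25. The addressin gene Madcam1 (2.58) and the lymphatic gene Lyve1 (3.08) were near background on it, as on the other arrays. The chemokine gene Cxcl13, which guides B cells into follicles, was at 6.77, against 6.14 or lower elsewhere. The part of neighbouring tissue in the values of this array was not tested, and from 1 array it cannot be told apart from lymphocytes within the gland.

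**Figure D4:**
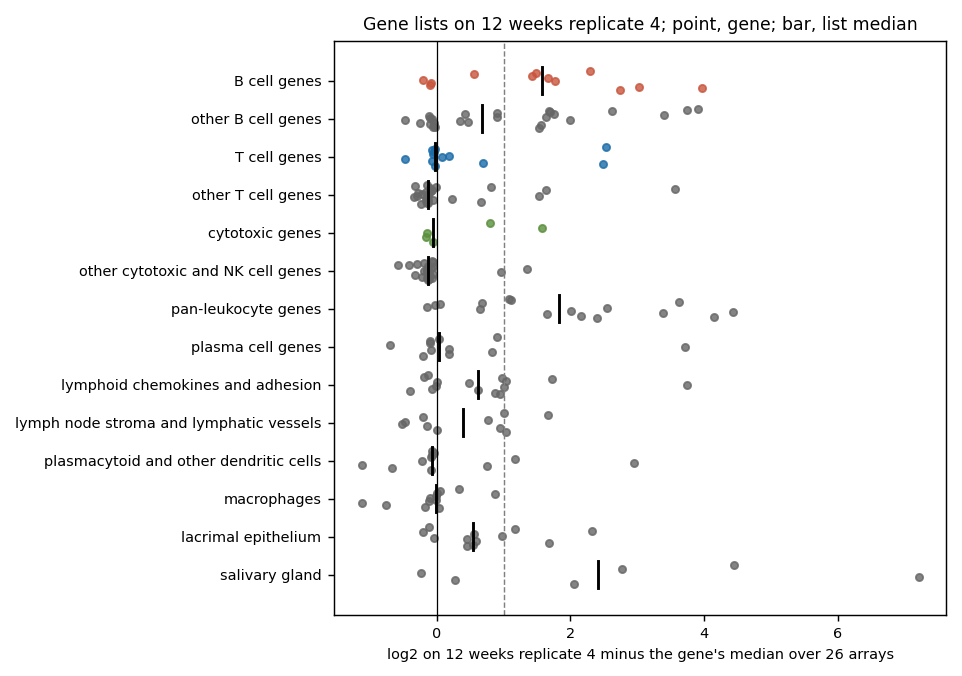
The x axis is the log2 value on 12 weeks replicate 4 minus the gene's median over all 26 arrays; each point is a gene, rows are gene lists, the black bar is the list median and the dashed line marks 1 log2 unit. B cell genes (median 1.57), pan-leukocyte genes (1.83) and salivary gland genes (2.41) are shifted to the right, and T cell, cytotoxic and macrophage genes have medians near 0.

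Further lists were read against the 14.9% of all genes called in the limma F test and the 1.36% called for 8 against 4 weeks. In the F test 5 of the 14 pan-leukocyte genes kept were called, and at 8 weeks 4 of the 14 were higher than at 4 weeks, among them Ptprc (CD45), by 2.93 ± 0.63 (adjusted p = 0.0205), and Laptm5, by 2.90 ± 0.73 (adjusted p = 0.0461). In the same contrast, 6 of the 10 macrophage genes kept were higher, among them Lyz2, by 3.59 ± 0.52 (adjusted p = 0.000660). Of the 16 further B cell genes kept, 3 were called in the F test, Ighm, Pik3ap1 and Ralgps2, a share near that of all genes. Ighm, the heavy chain of IgM, was 2.06 ± 0.52 higher at 20 than at 4 weeks (adjusted p = 0.0391).

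Of the 5 plasma cell genes kept, Igha and Jchain were called in the F test. Igha, the heavy chain of the IgA that the gland secretes, had a mean ± SD of 6.23 ± 0.90 at 4 weeks (n = 4) and 11.36 ± 1.38 at 20 weeks (n = 5). None of the 10 further T cell genes kept was called in the F test, beside 14.9% of all genes kept, and 3 had an unadjusted p under 0.05. Rasgrp1 and Cd69, the pair with the highest means in that list, lay at 5.03 and 4.22 over all arrays.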

How the data were processed

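Lacrimal gland RNA was measured on 26 arrays, grouped by the age in their titles. The values deposited by the authors are log2 expression for 45101 probe sets, and the submitters' processing notes list RMA and GCRMA with no version, so which of them made the values is unknown here. They were used as deposited. Precision is limited by how many arrays there are.

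Names came from the platform annotation, which gives 1 gene symbol to 34958 probe sets, several to 932 and lists no entry for 9211. Only the first kind was used. For each gene the probe set with the highest mean was used, and 12377 of 18194 genes were above the array median on at least 4 arrays and kept. A mean per age was fitted with limma 3.58.1 in R 4.3.3 (lmFit and eBayes, no covariate), followed by an F test and 6 contrasts, two-sided and adjusted by Benjamini-Hochberg over the genes kept, with calls at an adjusted p under 0.05. The procedure was tested on simulated data. A change is the later age minus the earlier one, ± the SE from that fit.

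The genes and the 14 further lists were chosen with earlier results of these data known. From each further list the rule named up to 6 called genes with the smallest p in the F test, or else the 2 with the highest mean. Genes named outside it, in the tissue check and for 12 weeks replicate 4, were chosen after their values were seen. Levels 1 log2 unit above a gene's median were counted per array, a rule also chosen after the data were seen. Other settings changed the normalization, the filter, the probe set, the variance model, array weights, a replicate block, covariates and the arrays included. Promoters come from RefSeq (GRCm38.p6), and figures were drawn with matplotlib 3.10.9.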

Additional observations from a re-analysis of the deposited data

Results flagged for a closer look

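In each age, the highest or lowest array was compared with its nearest neighbour by Dixon's test at the 95% level, for 29 genes and 5 ages. Of the 145 groups, 23 had such an array, in 20 genes. The level alone would flag about 1 in 20 independent groups. The genes share the same arrays, and 10 of the 23 flags came from 1 array, so the count cannot be set against that rate. At 12 weeks, replicate 4 was the array in 10: Cd3d (4.63), Cd3g (3.60), Lat (5.72), Ms4a1 (7.02), Cd79a (6.67), Cd79b (5.65), Blk (3.60), Cr2 (4.13), Bank1 (4.58) and Spib (4.72). Its largest gap to the next array of that age was 3.97 log2 units, in Cd79a.

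At 20 weeks, replicate 1, the array with raised low values, was highest for Cd4 (5.35), Zap70 (3.18) and Fcer2a (3.52). Replicate 4 of that age was highest for Ms4a1 (5.86) and replicate 5 for Nkg7 (3.78). At 16 weeks, replicate 4 was highest for Cd6 (3.31) and replicate 2 lowest for Bank1 (2.95). At 8 weeks, replicate 5 was highest for Klrd1 (3.61) and Nkg7 (2.52), and replicate 1 lowest for Fcrla (2.85). At 4 weeks, replicate 3 was highest for Cd8a (3.48) and Cd8b1 (3.14), by at most 0.079 log2 units, and at 12 weeks replicate 5 was lowest for Cd247 (2.94).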

How the results depend on the processing

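In the F test the count of lymphocyte genes called, 0 as reported, was 1 with the mean of all probe sets or with trend and robust in eBayes (Klrd1 both times) and 4 with array weights (Cd3e, Cd247, Cd4 and Klrd1), where 8152 genes were called in all. Leaving out each array in turn gave 0 to 2: 1 without 8 weeks replicate 5, 16 weeks replicate 1 or 20 weeks replicate 2, and 2 without 20 weeks replicate 5. With array weights, 3 genes were called for 8 against 4 weeks, 2 for 20 against 4 weeks and 2 for 12 to 20 against 4 and 8 weeks. In that last contrast the count was 1, Klrd1, with both arrays that stand apart left out or with the array SD as a covariate, and 0 to 1 on leaving out each array (1 without 16 weeks replicate 1 or 20 weeks replicate 1). It stayed 0 in every setting run for 12 against 8, 16 against 12 and 20 against 16 weeks. Of 2925 values of single genes under other settings, 2815 kept their call and, in the contrasts, their direction. A further 22 passed the test, and 88 that were not called changed sign. F values have no direction, so only their call was compared. The cause of these changes was not tested. Leaving out each array moved the number of all genes called in the F test between 1380 and 2952.

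Arrays of different ages share replicate numbers only as a number: the correlation of their deviations had a median of -0.080 over 47 pairs of arrays with the same number and 0.017 over 222 pairs with different numbers. With the replicate number as a block, 0 of the 11 genes were called in the F test and in every contrast, and 1310 of all genes in the F test.

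The count of genes at least 1 log2 unit above their median on 12 weeks replicate 4 was 11, 6 at 2 log2 units and 10 to 14 in the 6 other settings. Signal near background also limits these genes, since a change within background cannot be seen.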
